A study of Mus musculus with 4 samples.

Results

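The regions described here lie in 6 segments of placed mouse chromosomes, and on sequences that the GRCm39 assembly holds outside the finished chromosomes. They were taken as repeated or poorly assembled DNA, but the sequence at the regions was not examined, so not every region need be repeated. Calls of the 4 libraries that overlapped by at least 1 bp were merged, which gave 72425 accessible regions. Of these, 550 were taken, namely every region on a sequence whose name starts with GL, JH or MU and every region with its midpoint in 1 of the 6 segments. The segments are chromosome 8 from 19 to 23 Mb (151 regions), chromosome 5 from 14 to 17 Mb (133), chromosome 7 from 59 to 60 Mb (20), chromosome 14 from 41 to 45 Mb (24), chromosome 9 from 3 to 4 Mb (25) and chromosome 3 from 3 to 4 Mb (25). The other 172 regions lie on 23 sequences, called unplaced here although some of them are assigned to a chromosome without a position. The segments and sequences were chosen by the call counts and pileups of these same 4 libraries, so those values are given as a description, with no test.

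The libraries are ATAC-seq of B16-F10, a mouse melanoma line. In this assay the Tn5 transposase cuts open DNA and leaves sequencing adapters there. The 2 groups are Wild type and Knockout, each with 2 libraries, and differ in Ssbp4, a single-stranded DNA-binding protein gene of chromosome 8. Per the labels' protocols, Cas9 and a mix of guides against Ssbp4 were delivered by electroporation, and the control guide was directed to an intergenic site of chromosome 2. The study concerns SSBP4, cholesterol synthesis and the escape of tumours from immunity. The labels do not say whether the knockout cells are 1 clone or a pool, nor whether the libraries of a group came from separate cultures, so the spread between replicates may be technical. Cells of both groups had been frozen, thawed and processed with the same commercial kit.

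A sequencing read that fits several near-identical copies of a sequence cannot be assigned to 1 of them, so an aligner must drop it or place it at one of the copies. Tandem gene families and satellite arrays are the usual places where this happens, and the start of an acrocentric mouse chromosome borders on the satellite DNA of its centromere. Unplaced sequences are often enriched for such repeats, because repeats are what kept them from being placed. In ATAC-seq, reads from DNA that is present in many copies can pile up beyond what a single open copy would give.

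Gene families of this kind on the chromosomes concerned are the alpha-defensins and beta-defensins, secreted antimicrobial peptides, the Speer genes, a tandem family expressed in testis, and the Snord116 small nucleolar RNAs of the imprinted region linked to Prader-Willi syndrome. In RefSeq's table of mouse genes, built on GRCm38.p6, chromosome 8 carries 40 of 40 alpha-defensin genes and 24 of 43 beta-defensin genes, chromosome 5 carries 11 of 15 Speer genes and chromosome 7 carries 17 of 17 Snord116 genes. That table is of another build than the peak lists, so it was used for chromosomes and names only and no region below is tied to a gene. How alike such copies can be is shown by the alpha-defensin promoters of chromosome 8 in RefSeq (GRCm38.p6). There were 16 with sequence, and 10 of them were identical to another over all 250 bases before the start, as Defa2 and Defa20 or Defa23 and Defa31, so that the 16 hold 11 different sequences. The following promoters, on the plus strand, differ at 5 of the 250 bases, which are in capitals.

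Defa21: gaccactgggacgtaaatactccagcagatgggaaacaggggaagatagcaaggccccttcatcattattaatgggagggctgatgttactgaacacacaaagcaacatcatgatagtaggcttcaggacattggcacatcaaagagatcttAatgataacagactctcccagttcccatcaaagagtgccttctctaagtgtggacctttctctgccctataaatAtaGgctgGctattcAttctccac
Defa2: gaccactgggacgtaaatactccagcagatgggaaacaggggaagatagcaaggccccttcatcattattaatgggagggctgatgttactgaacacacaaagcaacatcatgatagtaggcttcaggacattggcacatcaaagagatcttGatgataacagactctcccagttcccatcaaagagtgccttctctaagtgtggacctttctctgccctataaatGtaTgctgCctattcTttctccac

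Each peak list gives a fold enrichment and a p-value for every summit, and from these the number of fragments piled up at the summit and the background it was compared with were recovered. That background is the larger of the genome-wide level of the library and a level in a window around the region, which holds the region's own reads. The genome-wide level was 14.7 and 15.1 in wild-type replicates 1 and 2 and 17.2 and 17.4 in knockout replicates 1 and 2. Pileups and local backgrounds were divided by it, and differences are knockout minus wild type on a log2 scale, each the difference of the mean log2 values of the 2 libraries. On this scale the 43800 regions elsewhere on chromosomes 1 to 19, X and Y that were called in all 4 libraries had a median difference of -0.58. As a second scale, pileups were divided by the median pileup of the regions elsewhere (198, 232, 139 and 173), on which those regions had a median of 0.10. With 2 libraries against 2, no permutation test could give a two-sided p under 0.33. "Higher in both" below means that each knockout library exceeded each wild-type library, and "lower in both" the reverse.

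The knockout lists were shorter over the whole genome, while the members as a group had more calls in each knockout library. The members held 398 and 381 calls in the wild-type libraries against 424 and 481 in the knockout libraries, while the regions elsewhere held 58943 and 62816 against 49781 and 57365. Members thus made up 0.671% and 0.603% of the wild-type calls against 0.845% and 0.832% of the knockout calls, with no overlap between the groups. The DNA covered by calls showed the same order, 385 and 346 kb in wild type against 469 and 471 kb in the knockout.

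Of the 550 members, 61 (11.1%) were gained, meaning called in both knockout libraries and in neither wild-type library, against 1.54% of all 72425 regions. Lost regions, with the reverse pattern, numbered 13 (2.36%), against 7.08% of all regions. A call in all 4 libraries was present in 290 members (52.7%), against 60.9% of all regions. The call pattern was part of what chose the members, and nothing is read from these counts against the background. A further 102 members were called in 1 library, 34 of them in a wild-type library and 68 in a knockout library, and 44 of these 68 only in knockout replicate 2. Gained members numbered 25 on chromosome 8 (16.6% of its regions), 16 on the unplaced sequences (9.30%) and 9 on chromosome 5 (6.77%). There were 6 on chromosome 14 (25%), 4 on chromosome 7 (20%), 1 on chromosome 9 (4%) and 0 on chromosome 3. The share was thus highest on chromosomes 14 and 7, which hold few regions.

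Members lay closer together than other regions, with a median gap of 3667 bp between neighbours against 10280 bp elsewhere (chromosome 14, at 14620 bp, was the exception), and were of similar length, with medians of 964.5 and 914 bp. Among the 290 members called in every library, the median fold enrichment was 3.30 and 3.34 in wild type against 2.78 and 3.08 in the knockout. The regions elsewhere had median folds of 7.46 and 8.30 against 5.12 and 6.02. A low fold was common to all segments, since the median member of each segment lay between percentiles 5.98 and 10.3 of the folds elsewhere. The pileups did not share this. Their medians ranged from percentile 4.64 of the pileups elsewhere on chromosome 14 to percentile 94.9 on chromosome 9.

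**Figure D1:**
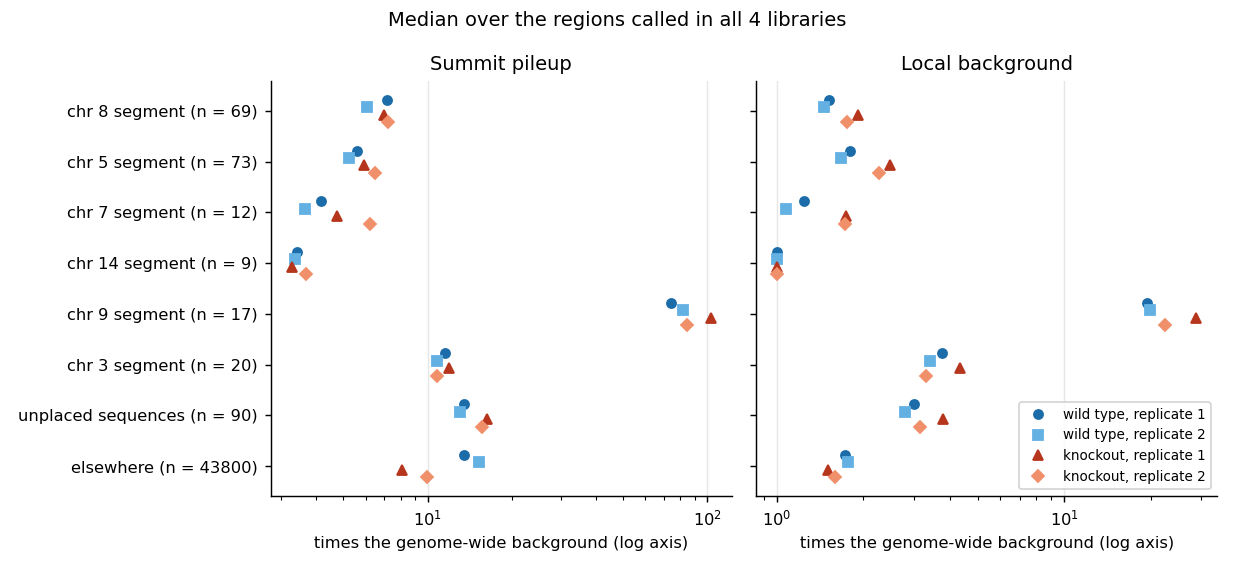
Median summit pileup (left) and median local background (right) of the regions called in all 4 libraries, as multiples of the genome-wide background of the library on log axes. Each point is 1 library, and n is the number of regions. The knockout points lie left of the wild-type points for the regions elsewhere in both panels, and right of them for local background on chromosomes 5, 7 and 9, on chromosome 8 and on the unplaced sequences.

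The summit pileup of 132 of the 290 members was higher in both knockout libraries, against 1.37% of the 44092 regions of the whole genome that were called in every library. It was lower in both in 84 members, against 88.5%. The median difference was 0.14 over the members, and their replicates differed by medians of 0.01 in wild type and 0.07 in the knockout. The local background was higher in both in 181 members, against 9.18%, with a median difference of 0.32 against -0.17 elsewhere. On the second scale 253 of the 290 members were higher in both, against 45.9%, with a median difference of 0.82. On that scale 16 members (5.52%) were lower in both, against 21.4% of the regions elsewhere. Background and pileup of a region are read from the same fragments and are not independent.

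Over all members, the direction differed with the enrichment of the region. The 202 members with a mean fold of up to 4 had a median pileup difference of 0.23, with 111 higher and 34 lower in both knockout libraries. The 57 members with a fold from 4 to 8 had a median of -0.00, with 20 higher and 21 lower. The 31 members above 8 had a median of -0.55, with 1 higher and 29 lower. Strongly enriched members thus had a difference close to that of the 16445 regions elsewhere with a fold above 8, whose median was -0.62. Weakly enriched members lay on the other side of 0 from the 8840 regions elsewhere with a fold of up to 4, whose median was -0.41 and of which 351 were higher in both. This order was not common to all segments, and 20 of the 31 members above 8 lie on chromosome 8. Chromosome 5 followed it, with medians of 0.32, -0.29 and -1.07 (2 regions above 8). So did chromosome 14, with 0.05, -0.25 and -0.55 (1 region above 8). On chromosome 9 the median was -0.22 up to a fold of 4 (4 higher, 5 lower of 10) and 0.18 from 4 to 8 (3 higher, 0 lower of 5). On chromosome 3 the same classes had medians of -0.06 and 0.13, and on the unplaced sequences 0.15 and 0.22. Above 8 the median was -0.48 on chromosome 9 (2 regions, 2 lower). On the unplaced sequences it was -0.39 there (1 higher, 4 lower of 6). These classes were set after the values were seen.

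**Figure D2:**
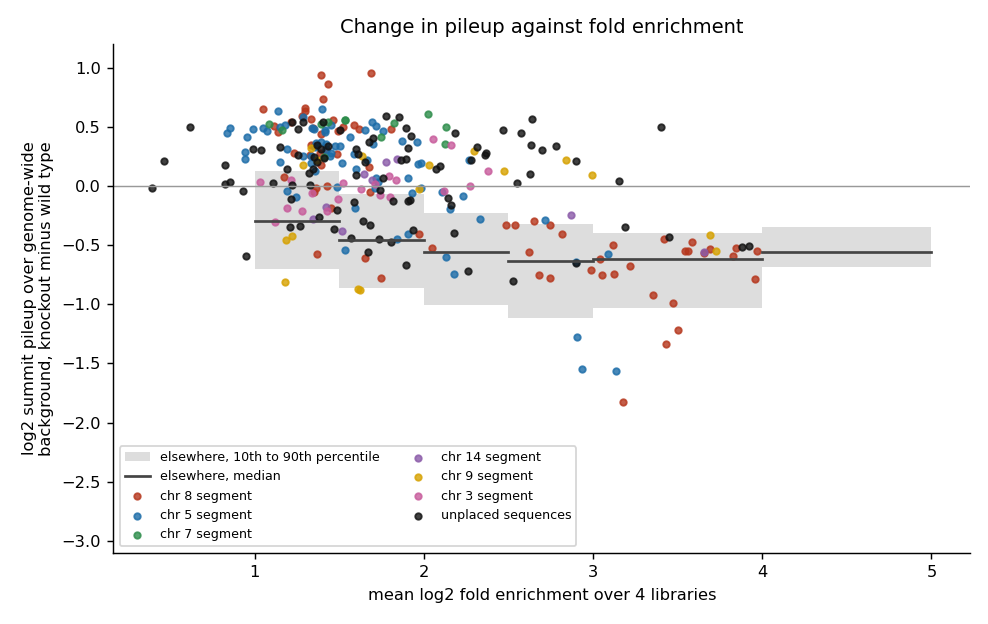
Difference in summit pileup over the genome-wide background (log2, knockout minus wild type) against the mean log2 fold enrichment over the 4 libraries. Points are the members called in every library, coloured by segment, and the dark lines and grey boxes give the median and the 10th to 90th percentile of the regions elsewhere in classes of fold. Below a mean fold of 4 most members lie above the line at 0, and above a fold of 8 most lie within or below the grey boxes.

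The chromosome 8 segment held 91 and 94 calls in the wild-type libraries against 109 and 133 in the knockout libraries. Its 69 regions called in every library had median pileups of 7.15 and 6.08 times the genome-wide background in wild type against 6.99 and 7.22 in the knockout, so the segment as a whole did not separate the groups. The median difference was -0.19 on the background scale and 0.49 on the second scale, so its sign depends on the scale, while it lay above the regions elsewhere on both. On the background scale 28 of the 69 regions were higher and 33 lower in both knockout libraries. The local background was higher in both in 35 and lower in both in 22, with a median difference of 0.03.

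The segment was not uniform along its length. Between 20.5 and 21 Mb, 10 of 12 regions called in every library were higher and 1 lower in both knockout libraries (median 0.47). The local background was higher in 10 of the 12, 7 regions were gained and 1 was lost. Between 21 and 21.5 Mb, 12 of 18 were higher and 5 lower (median 0.38), 12 had a higher local background and 11 regions were gained. Here the median local background was 1.35 and 1.29 times the genome-wide level in wild type against 2.13 and 1.91 in the knockout. The half-megabase before, from 20 to 20.5 Mb, was mixed, with 5 higher and 8 lower of 17 (median -0.05) and 4 gained. At the far end of the segment, from 22.5 to 23 Mb, all 14 regions were lower in both knockout libraries (median -0.72), and none was gained. Over the whole genome 88.5% of the regions called in every library were lower in both. On the second scale the 14 regions had a median of -0.04.

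Within the segment the difference followed the fold enrichment. The 39 regions with a fold of up to 4 had a median of 0.44, with 28 higher and 5 lower, while all 20 regions above 8 were lower (median -0.60) and none of the 10 in between was higher. Strong and weak regions stood side by side. The strong region chr8:20697349-20698825 had pileups of 2869 and 3476 in wild type against 2335 and 2782 in the knockout (difference -0.52), and lies among weak regions with the opposite direction. The second of the highest rank, chr8:19834106-19835613, had 2932 and 3370 against 2328 and 2684 (-0.55). These also had the highest local backgrounds of the segment, at 179.6 and 192.8 in wild type for the latter and 168.2 and 173.9 in the knockout. In both regions each knockout library lay below each wild-type library even before division by the background.

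The largest difference upward in the segment, picked for its value, was at chr8:20644903-20645747, where the pileups were 53 and 46 in wild type against 126 and 98 in the knockout (0.95). The largest downward, chr8:22682353-22683911, had 642 and 1008 against 225 and 307 (-1.83). Both are extremes chosen by their difference, so nothing is read from the lack of overlap between the groups in either. The gained regions were weak calls. The 3 of highest rank were chr8:21035001-21036074, with pileups of 69 and 54 in knockout replicates 1 and 2, chr8:20003926-20004463, with 54 and 51, and chr8:19785794-19787460, with 48 and 52. Of the 4 lost regions, chr8:19004033-19004462 had pileups of 304 and 398 in the wild-type libraries on a local background of 116.3 and 129.2. The lost regions chr8:22996020-22996638 (73 and 89) and chr8:22584108-22584743 (46 and 44) lie in the last half-megabase, where the regions called in every library were lower too.

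**Figure D3:**
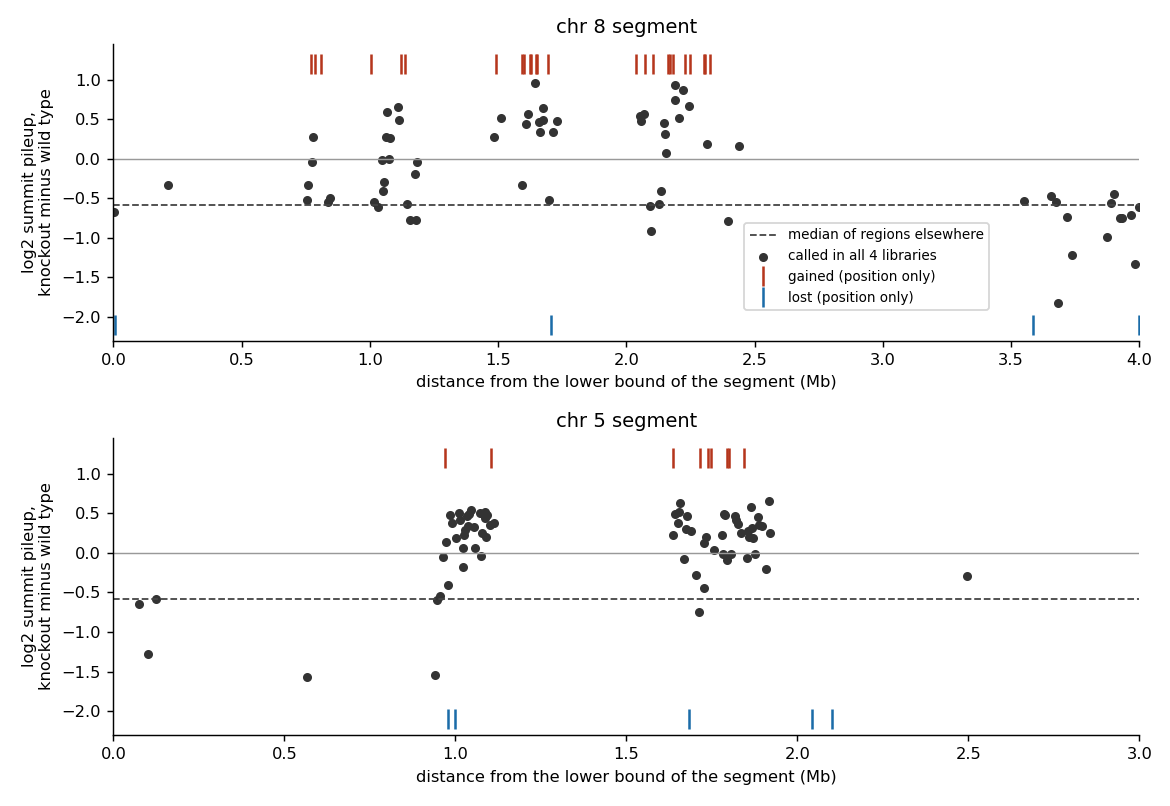
Difference in summit pileup over the genome-wide background (log2, knockout minus wild type) along the segments of chromosomes 8 and 5, as distance from the lower bound in Mb. Points are regions called in all 4 libraries, and red and blue ticks mark gained and lost regions by position only. On chromosome 8 points above 0 lie between 0.7 and 2.5 Mb and the 14 points of the last half-megabase are all below 0, while on chromosome 5 the points above 0 form a cluster at about 1 Mb and a second between 1.6 and 2 Mb.

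The chromosome 5 segment showed little difference in the number of calls, at 107 and 99 in wild type against 101 and 111 in the knockout, and a clear one in background. The local background of its 73 regions called in every library was 1.80 and 1.67 times the genome-wide level in wild type against 2.48 and 2.27 in the knockout, and 65 of the 73 were higher in both (median 0.44). Replicates differed by medians of -0.07 and -0.04. The summit pileups were 5.59 and 5.22 against 5.94 and 6.48, with 41 higher and 14 lower in both (median 0.25, and 0.94 on the second scale).

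This was carried by the stretch from 15 to 16 Mb. From 15 to 15.5 Mb, 17 of 22 regions had a higher and none a lower pileup (median 0.35), and 21 had a higher local background. From 15.5 to 16 Mb, 22 of 38 had a higher and 5 a lower pileup (median 0.26). All 38 had a higher local background, and 7 regions were gained. Towards 14 Mb the median pileup differences were -0.64 over 3 regions up to 14.5 Mb and -0.41 over 9 regions up to 15 Mb. In these 9 regions the local background was still higher in the median (0.30, with 6 higher in both). The strongest calls of the segment lie in that part. The region chr5:14564638-14565627 had pileups of 205 and 418 in wild type against 99 and 133 in the knockout (-1.57), and its wild-type replicates lay far apart. The region chr5:14122817-14123563 had 147 and 181 against 115 and 140 (-0.58).

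The highest local backgrounds of the segment were in weak regions. At chr5:15088903-15090296 the background was 46.7 and 42.8 in wild type against 69.3 and 70.5 in the knockout, and the pileup was 112 and 105 against 143 and 146, so the background differed more (0.43) than the pileup (0.20). The fold enrichment there was 2.37 and 2.42 in wild type against 2.05 and 2.06 in the knockout. At chr5:15034733-15036036 the background was 43.0 and 42.3 against 69.8 and 68.9 and the pileup 128 and 124 against 160 and 214. In neither region did the groups overlap in pileup or background. The gained regions of highest rank were chr5:15842367-15842915 (67 and 75), chr5:14968739-14969630 (94 and 117) and chr5:15714026-15715122 (80 and 77). Of the 5 lost regions, the highest were chr5:16043033-16043545 (81 and 109 in wild type), chr5:16100210-16100659 (69 and 72) and chr5:14997662-14998252 (92 and 91).

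The chromosome 7 segment had the narrowest range of differences of the 6. Its calls numbered 13 and 13 in wild type against 16 and 21 in the knockout, 4 of its 20 regions were gained and 0 lost. Of 12 regions called in every library, 11 had a higher pileup in both knockout libraries and none a lower one, and the 12 differences ran from 0.24 to 0.61 with a median of 0.52. The local background was higher in both in all 12 (median 0.59). Median pileups were 4.16 and 3.63 times the genome-wide level in wild type against 4.75 and 6.22 in the knockout. The replicates differed by medians of -0.25 in wild type and 0.16 in the knockout, less than the groups did on average. Between libraries of the same number the median difference was 0.28 for replicate 1 and 0.73 for replicate 2. The first of these was about the size of the wild-type replicate gap.

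The strongest region of that segment, chr7:59416753-59419951, had pileups of 121 and 131 in wild type against 193 and 232 in the knockout (0.53), and also the highest local background, at 36.3 and 31.5 against 58.2 and 64.0. At chr7:59385554-59387198 the pileups were 109 and 80 against 155 and 151 (0.50), and at chr7:59420838-59422567 they were 117 and 88 against 151 and 198 (0.55). In all of these the groups were apart in raw pileup. The gained regions of highest rank were again weak, with pileups of 51 and 46 at chr7:59409786-59410769, 64 and 44 at chr7:59529153-59530581 and 48 and 51 at chr7:59407911-59408331. The nearest region before the segment, chr7:58877836-58879422, had 2394 and 2751 in wild type against 1730 and 2185 in the knockout (-0.62). This was the direction of regions elsewhere.

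The chromosome 14 segment was sparse and weak. It held 13 and 11 calls in wild type against 20 and 22 in the knockout, 6 of its 24 regions were gained (25%), and 0 were lost. Its 9 regions called in every library had median pileups of only 3.41 and 3.37 times the genome-wide background in wild type against 3.26 and 3.67 in the knockout. The median difference was -0.17 on the background scale, with 1 higher and 5 lower in both, and 0.51 on the second scale, so the direction depended on the scale. The local background, which cannot fall below the genome-wide level, was at that level in 8 of the 9 regions in each wild-type library and in 5 in each knockout library. It was higher in both knockout libraries in 2 of the 9.

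The strongest region there, chr14:44162336-44163260, had pileups of 258 and 336 in wild type against 211 and 257 in the knockout (-0.55), where the lowest wild-type value lay just above the highest knockout value. The next, chr14:41184821-41186193, had 117 and 141 against 118 and 134 (-0.25), with overlapping raw values. At chr14:43128505-43129481 the pileups were 50 and 65 against 46 and 56 (-0.38), while the local background stood at 14.7 and 15.1 in wild type against 21.5 and 22.6 in the knockout. The gained regions of highest rank were chr14:42408171-42409306 (73 and 54), chr14:41445439-41446228 (54 and 53) and chr14:43219231-43219825 (42 and 41).

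The chromosome 9 segment, at the assembled start of the chromosome, held pileups far above those of most regions. The median over its 17 regions called in every library was 74.4 and 82.0 times the genome-wide background in wild type against 103 and 84.4 in the knockout. The local background was 19.4 and 19.9 times that level in wild type against 28.9 and 22.5 in the knockout. Knockout replicate 1 was the highest library in both, and the knockout replicates differed in local background by a median of -0.34, about as much as the groups (0.32). Calls numbered 23 and 21 in wild type against 19 and 23 in the knockout.

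Blocks drawn after the values were seen showed opposite directions within 1 segment. In the 9 regions of the first 40 kb the median pileup was 2126 and 2381 in wild type against 3262 and 2831 in the knockout. Differences there ran from 0.10 to 0.32 (median 0.22), 7 of the 9 were higher in both, and all 9 had a higher local background. The 5 regions from 40 to 80 kb were all lower in both, with median pileups of 185 and 201 against 128 and 131 (median difference -0.81). The 3 regions beyond had a median of -0.42, with 2 lower.

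The highest pileup of that segment was at chr9:3023470-3025883, with 6389 and 7069 in wild type against 8528 and 8159 in the knockout (0.10). At chr9:3000283-3002301, the first region of the assembled sequence, the values were 5453 and 5648 against 8220 and 6870 (0.22). The highest local backgrounds were at chr9:3003334-3004271, 936.5 and 957.4 in wild type against 1541 and 1216 in the knockout, and at chr9:3020201-3021094, 824.2 and 860.7 against 1362 and 1093. In these the knockout libraries lay above the wild-type libraries in raw pileup and background. The single gained region, chr9:3308808-3310075, had pileups of 39 and 37, and the single lost region, chr9:3043090-3043500, had 147 and 138 in wild type and lies in the block where pileups were lower.

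The chromosome 3 segment, also at a chromosome start, had the largest share of regions called in every library. It held 25 and 26 calls in wild type against 22 and 23 in the knockout, 20 of its 25 regions (80%) were called in every library, and 0 were gained or lost. Median pileups were 11.5 and 10.8 times the genome-wide level in wild type against 11.9 and 10.8 in the knockout. The median difference was -0.01 on the background scale, within the spread between replicates (-0.09 in wild type and -0.20 in the knockout), with 2 higher and 2 lower in both, and 0.67 on the second scale, where 18 of 20 were higher. The latter value was 0.40 without knockout replicate 1 and 0.94 without knockout replicate 2.

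The highest pileup there was at chr3:3038352-3042436, with 756 and 679 in wild type against 907 and 759 in the knockout (-0.00), and the next at chr3:3054981-3056817, with 363 and 352 against 427 and 381 (-0.04). Divided by the genome-wide background, these did not separate the groups. The 2 regions that were higher in both, named for that, lie near the start of the segment. They are chr3:3000153-3002126, with 150 and 125 against 218 and 202 (0.40), and chr3:3009001-3010692, with 287 and 305 against 453 and 419 (0.34).

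**Figure D4:**
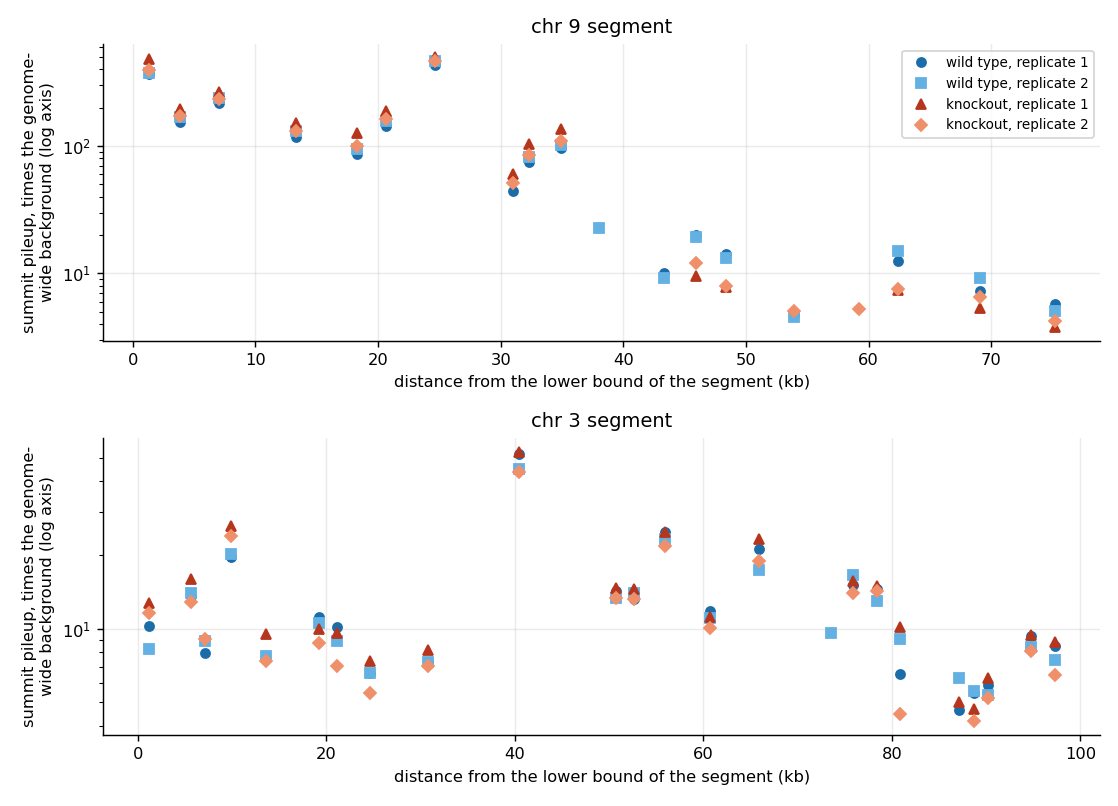
Summit pileup over the genome-wide background (log axis) of each call by distance in kb from the lower bound of the chromosome 9 segment (top, its first 80 kb) and of the chromosome 3 segment (bottom, its first 100 kb). Each point is 1 region in 1 library. On chromosome 9 the knockout triangles and diamonds lie mostly above the wild-type points over the first 40 kb and mostly below them from 45 kb on. On chromosome 3 the symbols of the groups overlap over most of the segment.

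The unplaced sequences held 126 and 117 calls in wild type against 137 and 148 in the knockout. Of 172 regions on 23 sequences, 90 were called in every library, 16 were gained and 3 lost, and 20 sequences had at least 1 region in every library. Median pileups of the 90 were 13.5 and 13.01 times the genome-wide background in wild type against 16.3 and 15.6 in the knockout (median difference 0.15, and 0.83 on the second scale). Of the 90, 42 were higher and 23 lower in both knockout libraries, and 55 had a higher local background (2.99 and 2.80 against 3.78 and 3.16 in the median). The replicates differed in pileup by medians of -0.00 and -0.06.

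Nearly all gained regions came from 4 sequences, GL456210.1, GL456211.1, GL456212.1 and GL456221.1, which the mouse assembly assigns to chromosome 1 without a position. They were grouped because of their call counts. They held 73 regions, 33 and 31 calls in wild type against 52 and 55 in the knockout, 14 of the 16 gained regions and 0 lost. Their regions called in every library, 18 in all, had a median difference of 0.18, with 8 higher and 6 lower in both, and a local background of 1.04 and 1.00 times the genome-wide level in wild type against 1.299 and 1.249 in the knockout. The sequences did not move alike, since the median was 0.33 on GL456212.1, 0.29 on GL456210.1, 0.15 on GL456211.1 and -0.27 on GL456221.1. The other 19 sequences held 93 and 86 calls in wild type against 85 and 93 in the knockout, with 2 gained and 3 lost.

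The sequence JH584304.1 carried the deepest pileups. Of its 26 regions, 24 were called in every library, with a local background of 19.8 and 20 times the genome-wide level in wild type against 27.8 and 22.9 in the knockout. The background was higher in both in 22 of the 24, the pileup in 16 and lower in 4 (median 0.22). Its highest region, from 58408 to 61249, had pileups of 18611 and 19858 in wild type against 16697 and 18545 in the knockout (-0.34), the opposite direction to most of its neighbours. Beyond it, the 12 regions from 68543 on were all higher in both knockout libraries, for example that from 70256 to 71504, with 1571 and 1632 against 2457 and 2017 (0.26). The gained region from 20934 to 22050 had 464 and 434 on a local background of 304.6 and 306.8.

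The sequence MU069435.1, with 8 regions in every library, moved the other way on the background scale. Its median difference was -0.40, with 6 of 8 lower in both and none higher. On the second scale it was 0.28, so the sign depends on the scale. The region from 29722 to 31123 had pileups of 14523 and 16532 in wild type against 12003 and 14799 in the knockout (-0.43), with overlapping raw values. The region from 45 to 1857 had 10487 and 13613 against 8029 and 7858 (-0.80), and there the groups were apart. A similar direction on the background scale was seen in the single regions of GL456359.1 (-0.65), MU069434.1 (-0.50) and GL456385.1 (-0.44). On the second scale these had 0.03, 0.18 and 0.24.

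Several short sequences stood at the other end. On GL456383.1 and GL456390.1, 5 of 5 regions each were higher in both knockout libraries, and both had a median of 0.45. As an example outside the naming rule, the region of GL456390.1 from 17978 to 19569 had pileups of 302 and 292 in wild type. Against these stood 442 and 433 in the knockout (0.34). On GL456396.1 all 3 regions were higher (0.42), and on GL456392.1 2 of 3 (0.50). The local background was also higher in both in each of the 16 regions that these 4 sequences had in every library.

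The other sequences lay in between. GL456389.1 (0.17), GL456381.1 (0.10), GL456239.1 (0.06) and GL456394.1 (0.02) were slightly above 0, and JH584298.1 (-0.10), GL456233.2 (-0.13) and GL456387.1 (-0.16) slightly below. On GL456381.1, GL456394.1 and GL456387.1 the knockout libraries lay on opposite sides of the wild-type mean. GL456354.1, JH584295.1 and JH584299.1 had no region in every library. The lost regions were the only ones of JH584295.1, from 66 to 561 with pileups of 40 and 55 in wild type, and of JH584299.1, from 613473 to 613936 with 57 and 54, and a region of GL456387.1 from 8081 to 8787 with 94 and 97. Apart from that on JH584304.1, the gained regions of highest rank were on GL456211.1, from 191625 to 192618 with 50 and 49 and from 81971 to 83141 with 45 and 51.

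**Figure D5:**
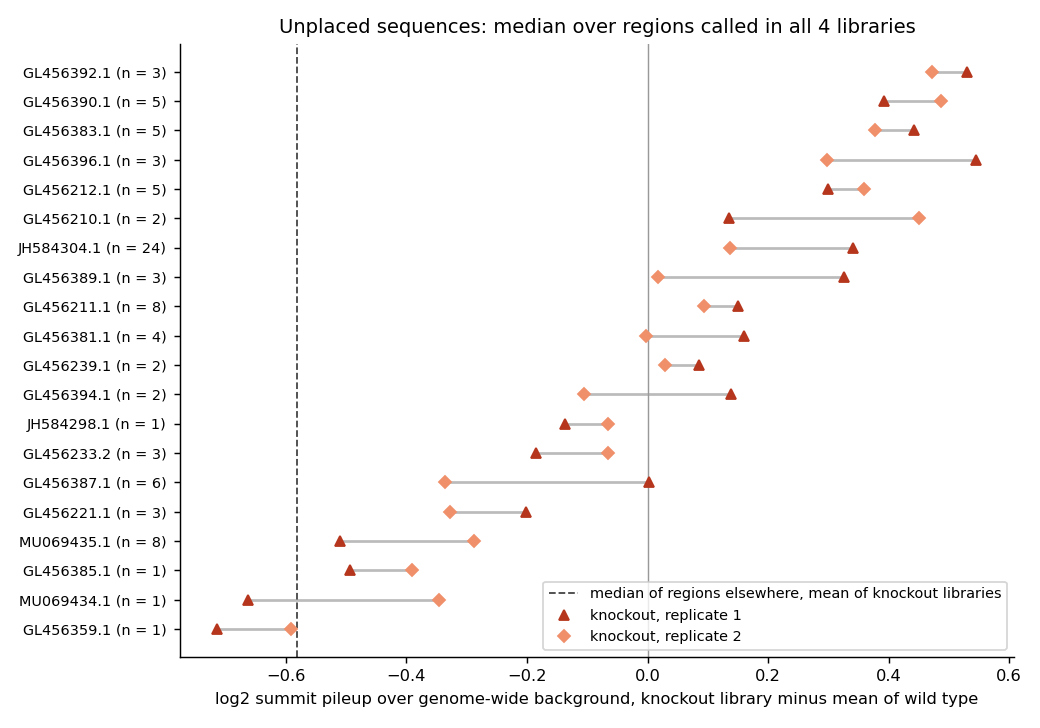
Median difference in summit pileup over the genome-wide background (log2) between each knockout library and the mean of the wild-type libraries, for the 20 unplaced sequences with at least 1 region called in all 4 libraries. Points are knockout replicates 1 and 2, n is the number of regions, and the dashed line is the median of the regions elsewhere (-0.58). The sequences spread from GL456359.1 on the left, at that line, to GL456392.1 on the right, at about 0.5.

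The bounds of the segments are round positions, and the regions nearest to them are given here. On chromosome 8 the first region inside, chr8:19000072-19001667, had pileups of 1202 and 1417 in wild type against 884 and 1014 in the knockout (-0.68), and the last, chr8:22997626-22999117, had 60 and 62 against 46 and 47 (-0.61). The nearest before it, chr8:18989764-18990193, was called in wild-type replicate 2 only, and the nearest after it, chr8:23016825-23017593, had 99 and 117 against 62 in knockout replicate 1. On chromosome 5 the first region inside, chr5:14075097-14075930, had 129 and 166 against 91 and 130 (-0.64), and the nearest before it, chr5:13678692-13679269, had 124 and 138 against 97 and 139 (-0.39). On chromosome 14 the nearest region after the segment, chr14:45377760-45378952, had 92 and 112 against 78 and 123 (-0.27).

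Across the segments, most regions called in every library on chromosome 7, on chromosome 5 between 15 and 16 Mb, on chromosome 8 between 20.5 and 21.5 Mb and in the first 40 kb of the chromosome 9 segment had a higher pileup in both knockout libraries, and most had a higher local background, with the exceptions counted above. These stretches are named because of their values, and in other stretches most regions were lower in both. That was the direction of 88.5% of the 44092 regions of the whole genome called in every library. Lower in both were 14 of 14 regions on chromosome 8 from 22.5 to 23 Mb. The same held for 5 of 5 at 40 to 80 kb of the chromosome 9 segment. On chromosome 5 it held for 3 of 3 up to 14.5 Mb and 5 of 9 from there to 15 Mb. It also held for 5 of 9 on chromosome 14 and 6 of 8 on MU069435.1. On the second scale the 14 regions of chromosome 8 had a median of -0.04, and all 9 on chromosome 14 were higher in both. Over the whole genome the knockout libraries had a lower fold enrichment (median over all calls 4.57 and 4.72 against 5.87 and 6.18). This moves with the differences in pileup and background, and its part in them was not tested. Copy number of the segments was not measured here, how reads with several possible positions were treated is not given in the sources used here, and regions that share near-identical sequence may share reads, so members are not independent of each other.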

How the data were processed

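The authors deposited 1 narrowPeak list per library, called per library and not on pooled reads. The submitters' processing notes name MACS2 and GRCm39. What aligner and versions were used, and whether duplicates were removed, reads were shifted for Tn5 or reads with several positions were kept, is not given in the sources used here. Per call the authors deposited a score (not used), a fold enrichment (the ratio of pileup to background at the summit), a −log10 p-value and a −log10 q-value. These values are the peak's own. Lists reach down to a q-value of about 0.05.

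Starts were converted to 1-based positions, and calls were merged on an overlap of 1 bp. Pileup and background were recovered from the fold, taken as (pileup + 1) over (background + 1), and the Poisson p-value, and 99.99% or more of the pileups in each library came out within 0.05 of a whole number. Total read numbers were not used. Each library held 50207 to 63199 calls. Where a region holds several calls of a library, its strongest call gave the values. Recovery and call patterns were tested on simulated data. Python 3.11.15, numpy 2.4.6, pandas 2.3.3, scipy 1.17.1 and matplotlib 3.10.9 were used.

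The members and the gene families were chosen with earlier results of these data known. Named per segment, and over the unplaced sequences, were the 2 regions of highest rank by p-value and the 2 of highest local background among those called in all 4 libraries, and the 3 gained and 3 lost regions of highest rank. Regions said to be picked or named for their values, given as examples or given as nearest to the bounds are outside that rule. Alternatives were windows of 501 bp, a call covering 50% of the region, lists cut to equal length, a −log10 q of 5 or more, another scale, bounds moved by 1 Mb and leaving out each library. Narrower segments and a reference of regions of like level were chosen after seeing the data. Genes and sequence at the regions were not analysed here, since the gene table is of another build.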

Additional observations from a re-analysis of the deposited data

How the results depend on the processing

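Gained members numbered 61 as reported, 35 with a −log10 q of at least 5 and 108 with lists of equal length. Lost members numbered 13, and 5 with equal lists, and members called in every library 290, and 172 with equal lists. Leaving out a library loosens the definitions: gained members then ranged from 68 to 106 (106 without knockout replicate 1), lost members from 17 to 34 (33 without wild-type replicate 1, 27 without wild-type replicate 2 and 34 without knockout replicate 2), and members called in every remaining library from 294 to 319. Gained members outnumbered lost members under each of these settings. The call pattern was part of what chose the members, so nothing is read from this.

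The pileup difference of the chromosome 8 segment, 0.49 relative to the median of the regions elsewhere, was -0.19 relative to the genome-wide background, 0.31 with a −log10 q of at least 5, 0.20 with the bounds moved out by 1 Mb, 0.96 from 20 to 22 Mb alone, and 0.39 to 0.59 with a library left out. That of the unplaced sequences, 0.83, was 0.15 relative to the genome-wide background and 0.60 to 0.98 with a library left out, lowest without knockout replicate 1. On the genome-wide background the sign also turned for chromosome 14 (-0.17) and chromosome 3 (-0.014). Set against regions elsewhere of like level, the differences were 0.33 on chromosome 8, 0.79 on chromosome 5, 0.94 on chromosome 7 (1.21 as reported), 0.36 on chromosome 14 (0.51), 0.41 on chromosome 9 (0.78), 0.60 on chromosome 3 (0.67) and 0.66 on the unplaced sequences. With a library left out, chromosome 3 ranged from 0.40 (without knockout replicate 1) to 0.94 (without knockout replicate 2). The local background difference of the members, 0.32, ranged from 0.19 (without knockout replicate 1) to 0.37. Causes of these changes were not tested, other than the looser definitions and shorter lists that the settings impose. No paired analysis was possible because these results come from no test that a block could enter. As values only, the median pileup differences between libraries of the same number, 1 and 2, had opposite signs on chromosome 9 (0.19 and -0.02) and chromosome 3 (0.05 and -0.09). Peak lists show only what was called, so a gained region may hold reads below the threshold in wild type.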
